A study of Mus musculus with 4 samples.

Results

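The genes described here are 10 components of the Hippo pathway that act around the coactivators YAP and TAZ: the transcription factors Tead1, Tead2, Tead3 and Tead4, their cofactor Vgll4, the kinases Stk3 (MST2), Stk4 (MST1) and Lats1, and the scaffold proteins Sav1 and Nf2. They were found by symbol among the 55488 genes of the count tables, and all 10 were present. The data were single-cell transcriptomes of whole livers from 4 mice, 1 per genotype: a genetically unmodified mouse (WT) and mice in which Alb-Cre, a Cre recombinase under the albumin promoter, had removed floxed alleles of Yap (YAPKO), of Taz (TAZKO) or of both (DKO). Alb-Cre acts in hepatocytes (HCs) and biliary epithelial cells (BECs), so endothelial cells (ECs), hepatic stellate cells (HSCs), Kupffer cells (KCs) and infiltrating leukocytes of the knock-out mice carried intact alleles. HCs and non-parenchymal cells (NPCs) were isolated separately after collagenase perfusion and mixed before loading, and the age of these 4 mice was not given in the sources used here. None of the 10 genes was itself targeted. With 1 mouse per genotype there was no replicate of any genotype, so no test of a genotype was possible: the range over the 4 libraries is given as the spread between mice, and the intervals of 95% cover counting error only.

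The Hippo pathway is a kinase cascade that restrains YAP and TAZ. The MST kinases, bound to the scaffold SAV1, activate the LATS kinases, which merlin (the product of Nf2) brings to the membrane, and these phosphorylate YAP and TAZ, which are then held in the cytoplasm or degraded. Without this phosphorylation YAP and TAZ enter the nucleus and bind TEAD proteins, which provide the contact with DNA, whereas VGLL4 binds the same TEAD surface and competes with them. In the liver, loss of the upstream kinases or of Nf2 in HCs or BECs is known to cause overgrowth.

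The deposited tables held 49022089 to 85989454 unique molecular identifiers (UMIs, 1 per captured transcript) per library, and 30362 cells passed the filters (500 to 6000 genes, at most 10% mitochondrial UMIs). They fell into 20 clusters, of which 16 were named by marker genes and 4, with 1186 cells, stayed unnamed. The names stand for cells resembling a type by its markers. Compared were 11 types with at least 50 cells in every library, among them 9478 HCs, 6340 ECs, 1072 HSCs, 2937 KCs, 2331 T cells and 1849 B cells, beside monocyte-derived macrophages (MACs), conventional and plasmacytoid dendritic cells (cDCs and pDCs), neutrophils (only 61 in TAZKO) and NK cells. The 131 BECs (53, 33, 28 and 17 cells in WT, YAPKO, TAZKO and DKO) were too few for that comparison, and their levels, shares and ratios rest on few UMIs. Levels are UMIs per 1000000 UMIs (CPM), summed over the cells of 1 type and library. As a check of the labels, Yap1 in HCs was at 21.4 CPM in WT, 4.80 in YAPKO, 47.2 in TAZKO and 4.49 in DKO, and Wwtr1, which encodes TAZ, was at 5.17, 13.3, 2.87 and 2.29 CPM in the same order, so each was lowest in the libraries labelled as its knock-outs. By HC cluster, Wwtr1 in TAZKO was at 0.755 CPM in cluster 13, against 5.75 in WT. In cluster 2 it was at 5.50 against 7.97 CPM, and in cluster 1 at 3.30 against 1.75 CPM, from 7 and 8 UMIs. The lower Wwtr1 level of TAZKO was thus not seen in every HC cluster. Pairs of libraries shared 9 to 26 barcodes of kept cells.

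RNA of ECs was found in cells of other types, and this touches nearly every level below. All 8 markers of ECs were above 100 CPM in the HSC cluster, where their sum was 9327 to 12207 CPM against 13942 to 15226 CPM in ECs, beside 7486 to 10565 CPM of the 8 HSC markers. The converse was smaller, with 157 to 237 CPM of HSC markers in ECs, against 10.6 to 15.2 CPM in HCs. Only 50 of the 1072 HSCs had less than 1000 CPM of EC markers (taken without Pecam1, which leukocytes also carry). As a share of its level in ECs, the EC marker sum was 34.0% in neutrophils, 31.8% in NK cells, 22.7% in pDCs, 15% in MACs, 6.15% in KCs, 4.26% in B cells, 1.59% in T cells and 0.639% in HCs. Whether this RNA came from droplets with 2 cells, from attached cell fragments or from free RNA was not tested. Levels are therefore also given for the 6894 of 12155 leukocytes without any UMI of the EC markers, by type where the types differ, since KCs held 28027083 of the 84982797 leukocyte UMIs but 741612 of the 32275002 in this selection, and for the 50 HSCs just described, 2 selections made after the data had been seen.

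Tead1, on chromosome 7 (GRCm38, positions 112679318 to 112906807), was the most abundant TEAD gene and was found in HSCs, ECs and BECs. In HSCs it reached 86.5 CPM in WT, 73.4 in YAPKO, 103 in TAZKO and 74.1 in DKO, and in ECs 52.0, 49.1, 61.5 and 53.7 CPM. Every HSC value thus lay above every EC value, by a mean of 1.56 times, and Tead1 was the only member with at least 500 UMIs whose leading type stood apart from all others in all 4 libraries (1 of 8 members, where 22.4% of all 12751 genes with as many UMIs did so and 1.89% did so in HSCs). Without the TAZKO library, 3 members stood apart, Tead1, Tead2 in ECs and Stk4 in T cells, and 32.2% of all genes.. Among the 50 HSCs with few EC markers, Tead1 was at 157 CPM (116 to 207; 50 UMIs), above the level in all HSCs of 83.4 CPM (77.5 to 89.7). In BECs it was at 132, 54.0, 143 and 67.6 CPM from 80, 26, 43 and 14 UMIs, so that the WT and TAZKO values were above any HSC value and the others near the ECs. HCs held 6.22, 13.5, 9.41 and 4.36 CPM.

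In leukocytes the Tead1 level moved with the amount of EC RNA. Neutrophils had 34.9% of the EC level of Tead1, NK cells 33.8%, pDCs 24.4%, MACs 15.1%, KCs 3.78%, B cells 3.18% and T cells 2.75%, of which the first 4 were near that type's share of the EC markers, while KCs and B cells were below it and T cells above it. Of the 519 Tead1 UMIs in the 8 leukocyte types, 507 lay in cells with an EC-marker UMI. The remaining 12 UMIs were counted among 32275002 UMIs of leukocytes without one, 0.372 CPM (0.192 to 0.649), and pDCs without one had 0 Tead1 UMIs among 1766079. Tead2 and Tead4 followed with 14 and 2 UMIs and Tead3 with 8 in the same cells, so that none of the 4 TEAD genes was above 0.5 CPM in the pooled cells. By type, Tead1 was at most 0.641 CPM in these cells except in KCs, whose 2 UMIs gave a mean of 2.79 CPM. Tead2 was at 1.62 CPM in neutrophils (4 UMIs) and 1.14 CPM in B cells, where 8 of its 11 UMIs lay in cells without EC-marker UMIs, as did all 4 Tead3 UMIs of B cells and all 4 of T cells. Wwtr1, which ECs express strongly, gave 16 UMIs.

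**Figure D1:**
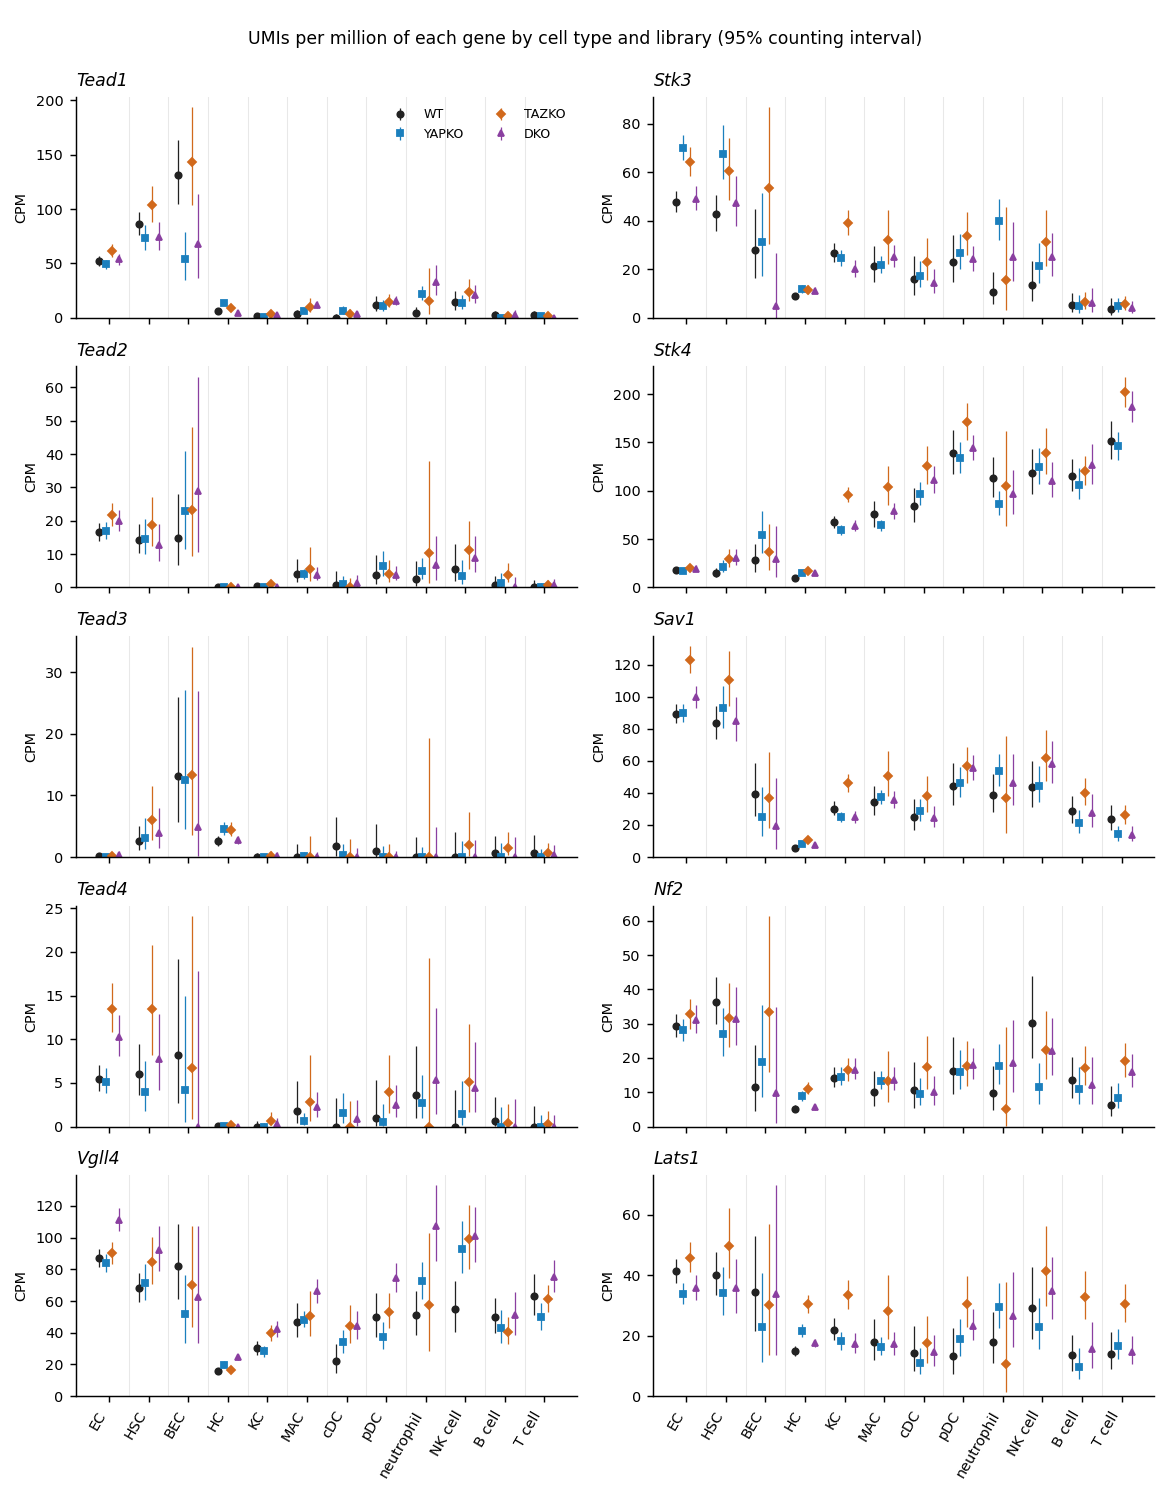
Level of each of the 10 genes in CPM (y axis, linear, own scale per panel) by cell type (x axis) and library (marker and colour), with the exact Poisson interval of 95%. Tead1 is high in HSCs, ECs and BECs and near 0 in B and T cells, Tead3 is near 0 in ECs, and Stk4 is the gene with its highest levels in leukocytes.

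The other TEAD genes were scarcer and each had its own distribution. Tead2, on chromosome 7 (45215753 to 45233644), was found in ECs at 16.5, 16.8, 21.7 and 19.9 CPM and in HSCs at 14.3, 14.6, 18.8 and 12.6 CPM (WT, YAPKO, TAZKO, DKO), ranges that overlap. HCs had 19 Tead2 UMIs in all, 0.158 to 0.287 CPM. Only 1 of the 129 Tead2 UMIs of HSCs came from the 50 cells with few EC markers, which gives 3.14 CPM with a wide interval (0.0794 to 17.5) that covers the level of all HSCs, 14.8 CPM. Exons of Cd37, a B cell gene, overlap Tead2 on the opposite strand; the library kit marks strand. Tead4, on chromosome 6 (128224288 to 128300823), was likewise found in ECs (5.40, 5.09, 13.4 and 10.3 CPM) and HSCs (6.04, 3.98, 13.4 and 7.69 CPM), with TAZKO highest in both types, and gave 5 UMIs among all HCs.

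Tead3, on chromosome 17 (28331671 to 28350817), had the opposite distribution to Tead2 and Tead4 with respect to ECs and HCs. It was found in HCs at 2.53, 4.57, 4.38 and 2.74 CPM from 48, 78, 61 and 86 UMIs, in HSCs at 2.54, 3.10, 6.04 and 3.84 CPM, and in BECs at 13.2, 12.5, 13.3 and 4.83 CPM from 8, 6, 4 and 1 UMIs. ECs gave 1, 0, 1 and 2 UMIs in the 4 libraries, at most 0.256 CPM, so every HC value was above every EC value. As a share of all TEAD UMIs, Tead1 made up 67.0% ± 6.04 in HCs, 66.7% ± 3.49 in ECs and 76.2% ± 2.59 in HSCs (mean ± SD over the 4 libraries), so its share in ECs and HCs differed by less than the spread. The second paralog differed between them: in HCs it was Tead3 with 30.2% ± 5.23, beside 2.13% Tead2 and 0.604% Tead4, and in ECs it was Tead2 with 23.0% ± 0.750, beside 10.1% Tead4 and 0.147% Tead3. BECs had 18.6% Tead2 and 8.27% Tead3 from 224 TEAD UMIs, and the 76 BECs with under 1000 CPM of EC markers still held Tead2 at 21.1 CPM (12.5 to 33.3; 18 UMIs) and Tead3 at 15.2 CPM (8.11 to 26.1; 13 UMIs). In HSCs with few EC markers the mean share of Tead1 was 93.5%. These shares compare UMIs, 1 per captured 3′ end and not scaled by transcript length, and do not allow for unequal capture of the paralogs.

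RefSeq promoter windows of 300 bases (GRCm38.p6, 250 before to 50 after the start) were at hand for 7 of the 10 members, Tead2, Tead3, Vgll4, Stk4, Sav1, Nf2 and Lats1, as 10 windows, and not for Tead1, Tead4 and Stk3. The windows shown here are those of Tead2 (chr7:45215542-45215841, plus strand) and of 1 of the 3 starts of Tead3 (chr17:28350551-28350850, minus strand), the paralogs that divided ECs from HCs, and of Stk4 (chr2:164073888-164074187, plus strand) and Sav1 (chr12:69986953-69987252, minus strand), kinase and scaffold of 1 complex with unlike cell types. Capitals mark CATTCC or its reverse complement GGAATG, the core of the M-CAT motif bound by TEAD proteins, and GGAAGT or ACTTCC, a core bound by ETS factors.
Tead2: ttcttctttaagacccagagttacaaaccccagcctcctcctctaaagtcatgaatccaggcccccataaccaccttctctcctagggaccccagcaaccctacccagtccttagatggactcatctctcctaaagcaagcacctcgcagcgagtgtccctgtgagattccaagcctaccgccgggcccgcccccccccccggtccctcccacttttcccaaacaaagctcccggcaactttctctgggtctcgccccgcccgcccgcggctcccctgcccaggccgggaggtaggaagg
Tead3: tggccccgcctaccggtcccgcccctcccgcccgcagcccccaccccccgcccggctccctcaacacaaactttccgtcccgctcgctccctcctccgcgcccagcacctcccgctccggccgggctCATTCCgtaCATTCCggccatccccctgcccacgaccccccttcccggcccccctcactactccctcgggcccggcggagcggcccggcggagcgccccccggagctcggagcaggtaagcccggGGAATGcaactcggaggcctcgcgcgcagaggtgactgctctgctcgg
Stk4: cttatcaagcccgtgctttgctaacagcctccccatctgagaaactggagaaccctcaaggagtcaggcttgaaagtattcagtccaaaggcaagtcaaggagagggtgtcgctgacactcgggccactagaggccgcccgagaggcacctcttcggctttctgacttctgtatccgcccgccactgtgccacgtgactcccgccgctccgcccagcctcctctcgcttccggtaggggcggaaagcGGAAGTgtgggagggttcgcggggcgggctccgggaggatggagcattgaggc
Sav1: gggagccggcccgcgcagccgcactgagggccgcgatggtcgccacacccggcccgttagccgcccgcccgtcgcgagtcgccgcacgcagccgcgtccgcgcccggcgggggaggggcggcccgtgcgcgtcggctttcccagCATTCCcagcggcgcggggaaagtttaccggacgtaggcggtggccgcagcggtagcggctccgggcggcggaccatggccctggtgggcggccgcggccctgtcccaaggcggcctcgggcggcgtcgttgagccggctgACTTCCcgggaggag
The Tead3 window held 3 matches of CATTCC on either strand, that of Sav1 held 1 beside 1 of GGAAGT, that of Stk4 had 1 of GGAAGT, and that of Tead2 had neither. Among the other windows, 1 of Tead3 that overlaps the window shown and that of Vgll4 had 1 CATTCC each, and 1 of Nf2 had 1 GGAAGT. Of all 32851 promoter windows, 14.7% had CATTCC and 23.8% had GGAAGT on either strand. The GC box GGGCGG or CCGCCC was present 3, 3, 5 and 6 times in the 4 windows shown and at least once in 35.7% of all. The end letters of these motifs can be shared, so that matches may overlap. A match describes the sequence and shows no binding.

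Vgll4, on chromosome 6 (114860628 to 114969994), was the most evenly spread of the TEAD partners. It was highest in ECs (87.2, 83.7, 90.0 and 111 CPM), NK cells (54.9, 93.1, 99.1 and 101) and HSCs (68.1, 71.2, 84.6 and 92.2), and lowest in HCs (15.7, 19.7, 16.5 and 24.6 CPM). The ranges of neighbouring types overlapped down the whole order except between KCs (28.2 to 42.2 CPM) and HCs, where all KC values were higher. Vgll4 was also found in leukocytes without EC-marker UMIs, at mean levels of 63.0 CPM in T cells, 43.9 in B cells, 82.5 in NK cells and 23.0 in KCs. With EC-marker UMIs the levels were 59.2, 61.9, 89.6 and 35.6 CPM, and 7 of the 8 types, all but T cells, were lower without them. T cells without EC-marker UMIs had 560 Vgll4 UMIs and 4 of Tead1. The 3 related cofactor genes of the pathway list, Vgll1, Vgll2 and Vgll3, gave 0, 0 and 6 UMIs in the named types. The 50 HSCs with few EC markers had Vgll4 at 18.8 CPM (6.91 to 41.0; 6 UMIs), below the 76.8 CPM (71.1 to 82.8) of all HSCs.

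The paralogous kinases Stk3 and Stk4 divided the liver cells between them. Stk4 (chromosome 2, 164070322 to 164155524) was highest in T cells at 152, 146, 202 and 186 CPM, followed by pDCs (139, 134, 171 and 144 CPM), NK cells, B cells, cDCs, neutrophils, MACs and KCs. Neighbours in this order overlapped as far as KCs (59.2 to 95.6 CPM), and then came a gap: HSCs had 15.3 to 30.2 CPM, ECs 17.1 to 19.8 and HCs 9.60 to 17.5. Stk3 (chromosome 15, 34875496 to 35178921) was highest in ECs at 47.7, 70.1, 64.2 and 49.1 CPM and in HSCs at 42.9, 67.7, 60.4 and 47.2 CPM. KCs held 26.7, 24.6, 39.1 and 20.2 CPM of Stk3, HCs 8.91 to 12, B cells 4.86 to 6.46 and T cells 3.83 to 5.70, and all HC values were above all B cell and T cell values.

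The share of Stk4 in the MST UMIs (Stk3 plus Stk4) ran from 24.8% ± 4.07 in ECs and 30.6% ± 6.71 in HSCs over 55.9% ± 3.37 in HCs, 72.3% ± 2.48 in KCs and 76.2% ± 1.41 in MACs to pDCs, NK cells and cDCs (84.6%, 84.6% and 85.4%) and to 95.4% ± 0.319 in B cells and 97.4% ± 0.449 in T cells (mean ± SD, n = 4 libraries). In the HSCs with few EC markers the mean share was 63.3% (8 Stk4 and 6 Stk3 UMIs in 3 libraries), so the HSC value depends on the cells taken. T cells gave 1797 Stk4 and 48 Stk3 UMIs. Every B cell and T cell value (94.9% to 97.9%) was above every value of the other types, among which neutrophils ranged most widely, from 68.5% to 91.3%. HCs carried both genes in nearly equal parts, with 51.9% to 59.9% Stk4 in the 4 libraries. BECs ranged from 40.7% to 85.7% with 109 MST UMIs in all.

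The Stk3 level of leukocytes moved with EC RNA. In every one of the 8 types Stk3 was lower in the cells without EC-marker UMIs than in all cells, for example at 6.37 against 22.8 CPM in NK cells and 13.6 against 26.9 in pDCs. Stk4 was higher in them in 7 types, with 177 against 172 CPM in T cells, 123 against 117 in B cells and 155 against 123 in NK cells, and lower in KCs (53.5 against 71.6 CPM). In neutrophils Stk3 was at a mean of 22.9 CPM in all cells and at 1.10 CPM, from 2 UMIs, in the 847 cells without EC-marker UMIs, while Stk4 was at 100 and 136 CPM. In KCs, by contrast, it was at 27.7 and 22.5 CPM, the latter from 17 UMIs of 237 cells. Nearly all KCs carried some EC-marker UMIs, so that this KC selection is small.

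**Figure D2:**
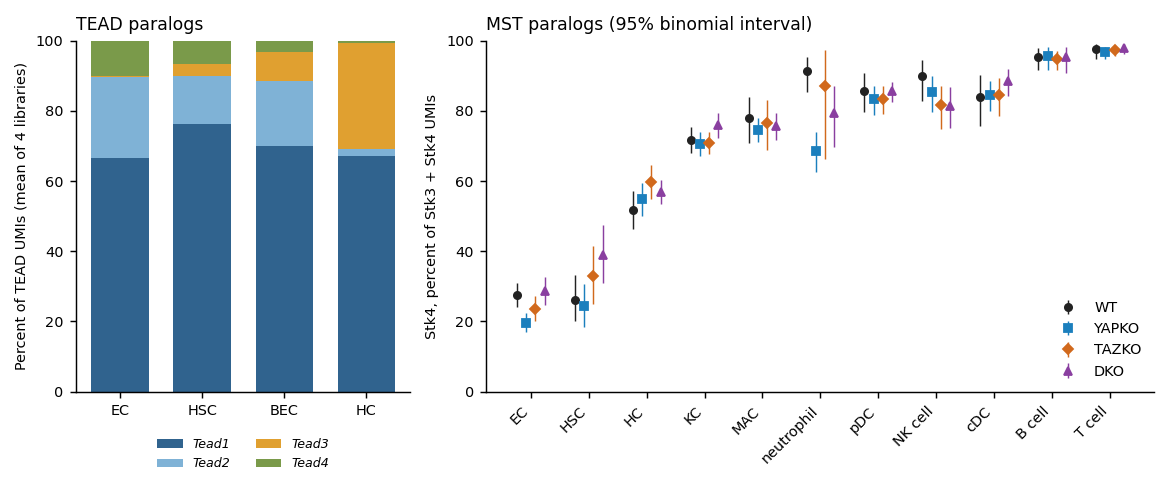
Left, mean share of each paralog in the TEAD UMIs (y axis, percent) in ECs, HSCs, BECs and HCs. Right, share of Stk4 in the UMIs of Stk3 and Stk4 (y axis, percent) by cell type and library with the exact binomial interval of 95%: the share runs from 24.8% in ECs to 97.4% in T cells, with HCs in between.

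**Figure D3:**
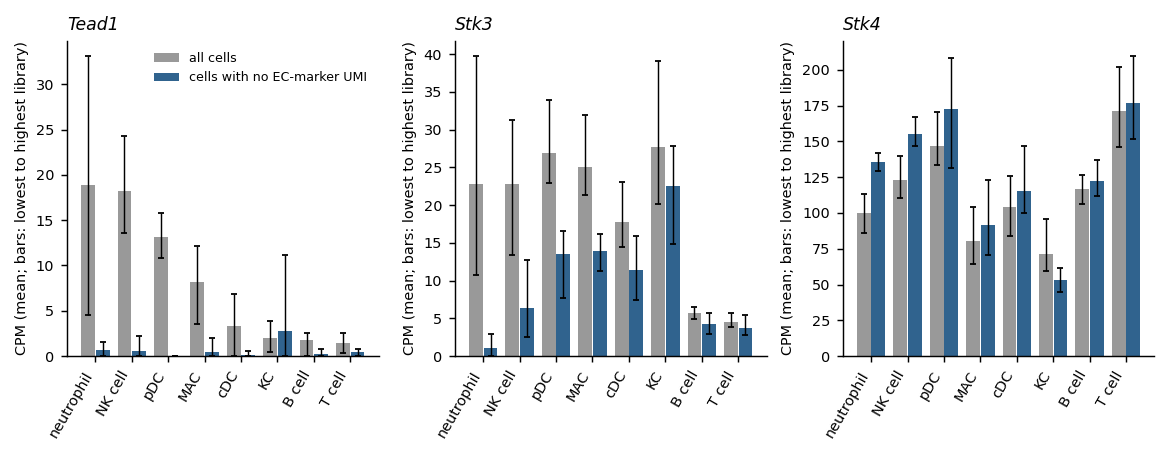
Levels of Tead1, Stk3 and Stk4 (y axis, CPM) in the 8 leukocyte types, for all cells (grey) and for cells without a UMI of the EC markers (blue). Bars are means of 4 libraries and lines run from the lowest to the highest library; Tead1 was near 0 in the blue bars except in KCs (2 UMIs), and Stk4 was not.

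Sav1, the scaffold of the MST kinases (chromosome 12, 69965012 to 69987002), followed Stk3 and not Stk4. It was highest in ECs at 89.2, 89.7, 123 and 99.6 CPM and in HSCs at 83.6, 92.9, 110 and 85.1 CPM, then came a gap to NK cells (43.7 to 61.7 CPM) and pDCs (44.0 to 56.5 CPM). T cells, the type with the most Stk4, had only 14.0 to 26.0 CPM of Sav1, and HCs 5.91 to 10.9 CPM, below every T cell value. In cells without EC-marker UMIs Sav1 was at 18.9 CPM in T cells and 25.9 in B cells, against 19.4 and 29.5 CPM in all cells of these types, and at 27.5 against 52.0 CPM in NK cells and 15.4 against 43.8 in neutrophils. Exons of Atl1 lie on the opposite strand of Sav1.

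Nf2 (chromosome 11, 4765845 to 4849536) and Lats1 (chromosome 10, 7681214 to 7716460) were found in all 11 types when all cells were taken. Mean levels ran from 7.70 CPM in HCs to 31.5 in HSCs for Nf2, and from 14.3 in cDCs to 39.9 in HSCs for Lats1. Nf2 was at 36.3, 27.0, 31.6 and 31.3 CPM in HSCs, at 29.3, 28.1, 32.7 and 31.1 in ECs and at 5.22, 8.90, 11.1 and 5.61 in HCs, and the ranges of all neighbouring types in its order overlapped. Lats1 was at 40.1, 34.1, 49.7 and 35.7 CPM in HSCs, at 41.3, 33.8, 45.8 and 35.8 in ECs and at 14.8, 21.7, 30.5 and 17.5 in HCs, and again no neighbours were apart. In neutrophils without EC-marker UMIs Nf2 was at 1.16 CPM from 4 UMIs, against 12.8 CPM in all neutrophils, and Lats1 at 13.3 against 21.1. Nf2 was not lower without them in pDCs (18.2 against 16.9 CPM) and T cells (12.6 against 12.4), nor Lats1 in KCs (22.9 against 22.7) and cDCs (14.8 against 14.3). Lats1 had its highest value in TAZKO in 10 of the 11 types, all but neutrophils, as did Sav1 and 9.59% of all genes in at least as many types, with a median of 4 types. Stk4 and Tead2 had it there in 8 types each, as had 23.8% of all genes in at least as many. Vgll4 had its highest value in DKO in 10 of the 11 types, all but cDCs. Only 0.769% of all genes were highest in DKO in at least as many types, with a median of 2 types. For Lats1, examples of the highest value in TAZKO were found in B cells and T cells (32.8 and 30.4 CPM), where the other libraries were at most 16.7 CPM.

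HC levels depend on the total used for scaling, since liver-specific transcripts fill the HC libraries. In another total, mitochondrial genes, the HC markers and the 50 most abundant HC genes were left out. This kept 51.4% to 63.8% of the HC UMIs and 86.8% to 91.8% of the EC UMIs. With it, among the 11 compared types, which leave out BECs, Tead3 became highest in HCs (6.02 against 4.31 CPM in HSCs). Lats1 in HCs moved from rank 6 to rank 3 of 11. HCs were still lowest for Vgll4 (32.3 CPM) and Sav1 (13.8 CPM), and ECs became lowest for Stk4 (20.9 against 23.8 CPM in HCs).

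When ECs and HSCs were set against the 8 leukocyte types, a grouping chosen after the data had been seen, all 8 EC and HSC values were above all leukocyte values for Tead1, Tead2, Stk3 and Sav1 (4 of the 8 members with at least 500 UMIs, and 7.36% of all genes). For Stk4 all leukocyte values were above all EC and HSC values, 59.2 to 202 against 15.3 to 30.2 CPM, which held for 0.996% of all genes. Vgll4, Nf2 and Lats1 overlapped between both groups. The HSC values include EC RNA, as described above. In the 50 HSCs with few EC markers, Tead1 (157 CPM) was still above the highest leukocyte value (33.2 CPM). Tead2, Stk3 and Sav1 (3.14, 18.8 and 40.8 CPM) were below theirs (11.1, 39.8 and 61.7 CPM), with intervals that reach above them. For these genes the separation was thus not shown for HSCs apart from EC RNA.

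**Figure D4:**
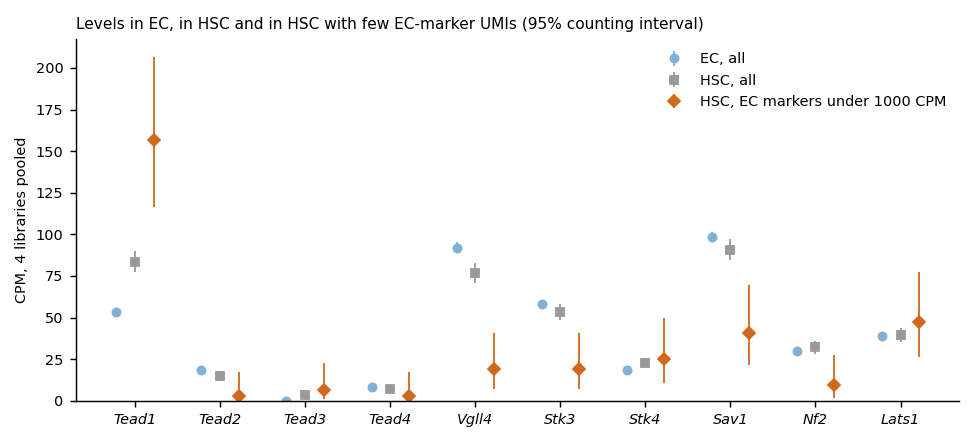
Levels of the 10 genes (y axis, CPM of the 4 libraries pooled, exact Poisson interval of 95%) in all ECs, in all HSCs and in the 50 HSCs with under 1000 CPM of EC markers. Tead1 is higher in these 50 cells than in all HSCs, Vgll4 and Stk3 are lower, and the intervals of the scarcer genes are wide.

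For the 50 HSCs with few EC markers, which held 318787 UMIs, the intervals of Stk3 (18.8 CPM, 6.91 to 41.0), Sav1 (40.8, 21.7 to 69.7) and Nf2 (9.41, 1.94 to 27.5) all lay below the levels of all HSCs (53.2, 90.9 and 32.0 CPM). Lats1 (47.1, 26.3 to 77.6) and Stk4 (25.1, 10.8 to 49.4) covered those levels (39.2 and 22.5 CPM). These cells had 640 CPM of Lrat and 1183 of Reln, against 365 and 518 CPM in all HSCs, and of the HC gene Alb 2208 against 954 CPM, most of all in the 17 cells of TAZKO (6208 CPM). Being selected by 1 gene list, they are a description of 50 cells and not of the type.

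The share of cells in which a member was detected depended on depth. After each cell was thinned to 1000 UMIs, Tead1 was detected in 4.79% ± 1.22 of ECs, 7.01% ± 2.03 of HSCs, 0.694% ± 0.287 of HCs, 0.207% ± 0.305 of T cells and 0 of 1845 B cells. Stk4 was detected in 15.4% ± 2.15 of T cells, 12.8% ± 0.782 of B cells, 7.40% ± 2.10 of KCs, 1.75% ± 0.364 of ECs and 1.33% ± 0.591 of HCs. Unthinned, the shares were 24.3% for Tead1 in ECs and 49.5% for Stk4 in T cells, at median depths of 3853 to 7587 and 3131 to 4741 UMIs. The Tead1 shares of T cells and B cells stand beside the others as those of types at the low end of its order.

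In HCs, the cells that carried the deletions, none of the 8 members with at least 100 UMIs differed from WT by 2-fold or more in any library, once the median ratio of all genes had been subtracted. This median was 0.42 in YAPKO, 0.57 in TAZKO and 0.46 in DKO on the log2 scale, and a ratio relative to it is called centred below. In YAPKO the centred log2 ratios of the 8 members ran from -0.09 to 0.70 with a median of 0.15, in TAZKO from -0.50 to 0.51 with a median of 0.25 and in DKO from -0.97 to 0.18 with a median of -0.17. Over all genes with as many UMIs, 1.79% were 2-fold higher and 1.23% lower in YAPKO (9235 genes), 3.47% and 4.83% in TAZKO (9176 genes), and 5.02% and 3.8% in DKO (9986 genes). A count of 0 among 8 members was thus within these low shares. Without the subtraction, Tead1 in YAPKO (log2 ratio 1.12) and Nf2 and Lats1 in TAZKO (1.08 and 1.04) were past 2-fold, as were 6.07% and 19% of all genes.

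Tead1 gave the widest span among the HC libraries. Its centred log2 ratio was 0.70 in YAPKO (0.37 to 1.03; 231 UMIs against 118 in WT), 0.02 in TAZKO (-0.35 to 0.39) and -0.97 in DKO (-1.34 to -0.61; 137 UMIs), so YAPKO had the highest and DKO the lowest level. The HC libraries were made up of different clusters: cluster 13, with deep cells led by Cyp2f2 and fibrinogen genes, held 58.7% of the HC UMIs in WT and 47.6% in TAZKO but 1.86% in YAPKO and 0.813% in DKO, where cluster 2 held 81.0% and 61.9%, and cluster 18 was almost wholly TAZKO. Within cluster 2 Tead1 was at 5.52 CPM in WT, 15.3 in YAPKO, 7.62 in TAZKO and 5.81 in DKO, and the centred ratio was 1.07 in YAPKO and -0.44 in DKO, from 18 UMIs in WT. Within cluster 1 the levels were 2.41, 3.07, 5.65 and 1.80 CPM from 9 to 21 UMIs, and the centred ratios, from too few UMIs to be called, were -0.29 in YAPKO and -1.20 in DKO. Depth differed too, with medians of 2478 UMIs per cell in WT, 25937 in YAPKO, 2299 in TAZKO and 21584 in DKO within cluster 2. The part of cluster makeup and depth in the Tead1 ratios was not tested.

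Of the other members in HCs, Vgll4 was lower in TAZKO (centred log2 ratio -0.50, -0.76 to -0.25), and at 0.18 in DKO and -0.09 in YAPKO with intervals that reach 0. Without centring, the TAZKO value was 0.07. Lats1 was at 0.47 in TAZKO (0.24 to 0.69; 424 UMIs against 281), at 0.13 in YAPKO and at -0.22 in DKO, and Nf2 at 0.51 in TAZKO (0.14 to 0.89), 0.35 in YAPKO and -0.36 in DKO. Stk3, Stk4 and Sav1 had centred ratios between -0.18 and 0.31 in the 3 knock-out libraries. The level of Stk3 in HCs was 8.91 CPM in WT and 11.3 to 12 CPM in the others. Tead2 and Tead4, with 19 and 5 UMIs in all HCs, were too scarce for a ratio.

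**Figure D5:**
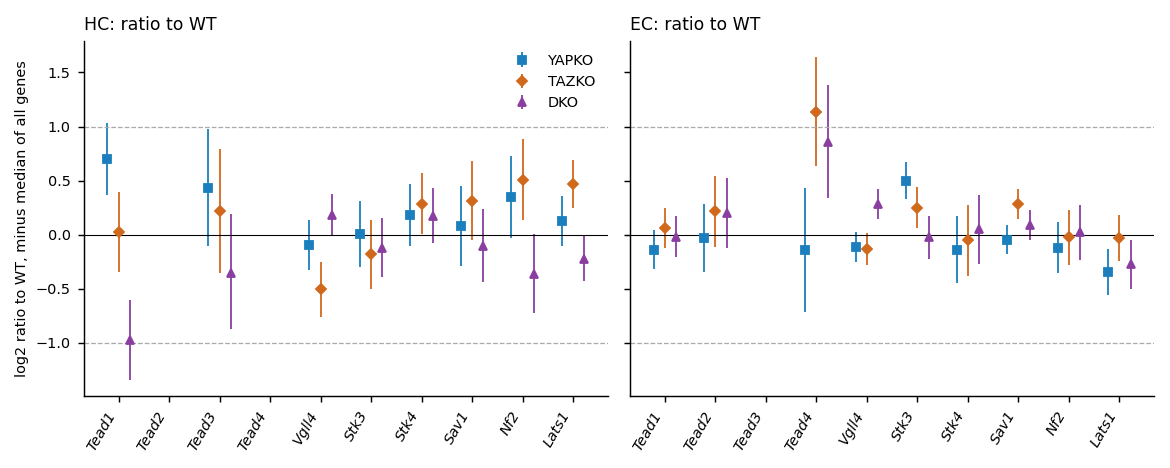
Log2 ratio of each knock-out library to WT minus the median of all genes (y axis) for the members with at least 100 UMIs in HCs (left) and ECs (right), with the exact binomial interval of 95% for counting error; dashed lines mark 2-fold. In HCs Tead1 lies highest in YAPKO and lowest in DKO, and in ECs only Tead4 in TAZKO lies beyond 2-fold.

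In ECs, whose alleles were intact, 9 members could be compared and 1 of them, Tead4 in TAZKO, was past 2-fold (2.25% of 9965 genes were 2-fold higher there and 3.15% lower). Tead4 had 94 UMIs in TAZKO against 54 in WT, a centred log2 ratio of 1.13 (0.64 to 1.64), and 80 UMIs in DKO with a ratio of 0.86 (0.34 to 1.38), whereas YAPKO was at -0.14 (-0.72 to 0.43). The levels were 13.4 CPM in TAZKO and 10.3 in DKO, against 5.40 in WT and 5.09 in YAPKO. The share of all genes with TAZKO and DKO both above WT and YAPKO was not determined, so this order is a description only. HSCs had the same order with 13.4 and 7.69 against 6.04 and 3.98 CPM, from 9 to 20 UMIs. Since the HSC cluster held EC RNA, it is no independent sample of this difference.

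In YAPKO and DKO no EC member was past 2-fold (0.879% of 10127 genes were higher and 2.45% lower in YAPKO, 1.64% of 9913 higher and 2.8% lower in DKO). Stk3 was at 0.50 in YAPKO (0.33 to 0.67; 730 UMIs against 477), 0.25 in TAZKO and -0.02 in DKO. Lats1 was at -0.34 in YAPKO (-0.55 to -0.14) and -0.27 in DKO (-0.50 to -0.05), and Vgll4 at 0.29 in DKO (0.15 to 0.42). Sav1 was at 0.28 in TAZKO (0.15 to 0.42). Tead1 lay between -0.14 and 0.06 in the 3 libraries with intervals that include 0, and so did Tead2, Stk4 and Nf2 between -0.14 and 0.22.

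In HSCs, with 6 or 7 members counted, none was past 2-fold. Stk3 was at 0.60 in YAPKO (0.26 to 0.95), and Stk4 at 0.94 in DKO (0.36 to 1.53; 55 UMIs against 48). Since the HSC cluster held EC RNA, its Stk3 ratio is no independent sample of that in ECs. Over all genes 0.612% were 2-fold higher and 1.64% lower in HSCs of YAPKO (7027 genes), 1.89% and 3.07% in TAZKO (6714) and 1.66% and 1.31% in DKO (6819). In KCs none of 6 members was past 2-fold either, with centred ratios of -0.43 (Stk3 in DKO) to 0.45 (Vgll4 in DKO). The shares of all KC genes that were 2-fold higher and lower were 0.506% and 1.96% in YAPKO, 3% and 6.49% in TAZKO and 1.68% and 1.69% in DKO. In the 7 other leukocyte types together, 61 ratios of members could be formed over the 3 libraries and 1 was past the fold (2.57% of all ratios higher and 2.38% lower), Stk3 in neutrophils of YAPKO (88 UMIs against 12, centred 1.58, 0.70 to 2.58). The EC-marker sum of neutrophils was 6612 CPM in YAPKO and 3864 CPM in WT, and neutrophils without EC-marker UMIs held 2 Stk3 UMIs in all.

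Alb-Cre also acts in BECs. Yap1 there was lower in YAPKO (log2 ratio without centring -1.66, -3.24 to -0.34) and DKO (-2.03, -5.16 to -0.02). Wwtr1 was lower in DKO (-1.84, -3.78 to -0.38) but not in TAZKO (-0.12, -0.99 to 0.69; 19 UMIs against 42). The Taz deletion was thus not seen in the Wwtr1 level of the TAZKO BECs. ECs and HSCs held Wwtr1 at 141 to 173 CPM and Yap1 at 39.3 to 82.6 CPM. The part of their RNA in the Yap1 and Wwtr1 levels of BECs was not tested. Tead1 in BECs was lower in YAPKO (-1.29, -1.98 to -0.63; 26 UMIs against 80) and DKO (-0.96, -1.89 to -0.13; 14 UMIs) and at 0.12 in TAZKO. EC markers moved with Tead1, at 5081 and 4521 CPM in WT and TAZKO and at 1067 and 1097 CPM in YAPKO and DKO. HC markers were at 7448, 5798, 10576 and 24192 CPM in WT, YAPKO, TAZKO and DKO. Among BECs with under 1000 CPM of EC markers, Tead1 was at 160 CPM in WT (108 to 228; 22 cells), 56.8 in YAPKO (36.0 to 85.2; 29 cells), 195 in TAZKO (114 to 313; 10 cells) and 63.3 in DKO (31.6 to 113; 15 cells). In the same cells the BEC marker Epcam was at 1585, 1776, 1011 and 224 CPM and the HC gene Alb at 4695, 1606, 6551 and 9304 CPM, so the DKO cells had the fewest BEC and the most HC transcripts. The WT and YAPKO values of Tead1 there rest on 30 and 23 UMIs of 1 mouse each, and the part of the other cell types' RNA was not tested. Stk4 was at 0.95 in YAPKO (0.01 to 1.92), and the intervals of the other members with any UMI in both libraries included 0.

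The wider pathway list held 46 other genes in 7 role groups. In HCs, 32 or 33 of them had enough UMIs, and those past 2-fold were Rassf5, an MST-binding scaffold, higher in YAPKO, TAZKO and DKO (centred log2 ratios 1.00, 1.74 and 1.09 from 38 WT UMIs), Amotl2, an angiomotin that YAP and TAZ induce, lower in YAPKO (-1.21) and higher in TAZKO (1.03), Limd1, a LATS inhibitor, higher in TAZKO (1.10), Yap1 lower in YAPKO and DKO (-2.58 and -2.72) and Wwtr1 lower in TAZKO and DKO (-1.42 and -1.64). The Wwtr1 level of TAZKO relative to WT differed between HC clusters, as given above. Limd1 was also past 2-fold higher in MACs, pDCs, T cells and NK cells of TAZKO, whose alleles were intact, and at 0.94 in ECs, 0.90 in HSCs and 0.71 in KCs of TAZKO. Other genes past the fold outside HCs were Tnik (lower in HSCs of DKO), Lats2 (KCs of TAZKO), Strn3 (MACs of TAZKO), Rassf1 (neutrophils of YAPKO) and Map4k1 (T cells of DKO), all but Tnik higher. In ECs none of 35 was past the fold in any library, and the list's median centred ratio was -0.04 in YAPKO, 0.14 in TAZKO and 0.06 in DKO.

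By role, the most abundant genes of this list showed which partners accompanied the members. Among kinase-cassette genes, the LATS cofactor Mob1a was at 145 to 390 CPM in KCs and 134 to 216 in ECs, and the related kinase Stk38 was highest in T cells (148 to 188 CPM against 53.4 to 64.4 in ECs), as Stk4 was. Of the upstream kinases, Taok1 was at 186 to 270 CPM in ECs and 38.0 to 69.0 in HCs, and Map4k4 at 143 to 186 and 2.85 to 7.33 CPM. The scaffolds Amotl1 and Wwc2 were at 340 to 436 and 155 to 221 CPM in ECs, and T cells had at most 9.19 and 6.65 CPM. Pard3, a polarity gene, was the reverse, at 29.8 to 51.6 CPM in HCs and 0.577 to 3.85 in ECs. Of the inhibitors, Strn3 was at 166 to 244 CPM in ECs, and Slmap, like Strn3 a part of the phosphatase complex that acts on MST kinases, was at 157 to 224 CPM in HSCs and 84.8 to 101 in ECs.

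Over the 44 values of 11 types and 4 libraries, the genes with a profile most like that of Tead1 (Pearson r of log2(CPM + 10)) were Masp1 (0.96), Dock6 (0.96) and Cdc42bpa (0.96), and Tead2 had Nynrin, 2700081O15Rik and Pabpc4l (0.97, 0.96 and 0.96). For Stk4 they were the leukocyte genes Sash3 (0.97), Ikzf1 (0.97) and Dock2 (0.96), for Stk3 Vps35, Lima1 and Dmwd (0.95 each) and for Sav1 Klf7, Exoc5 and Tlnrd1 (0.96 each). Vgll4 was most like Peak1, Prkar1a and Vezf1 (0.90, 0.90 and 0.89), Nf2 like Ssh1, Slf2 and Gpatch2 (0.89, 0.89 and 0.88) and Lats1 like Lnx2, Zfp445 and Actn4 (0.87, 0.87 and 0.86). The values of 1 library share their depth, and EC RNA runs through several types, so these likenesses are a description.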

How the data were processed

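Liver cells of 4 mice (1 per genotype) were measured with a stranded 10x 3′ kit. The authors made raw UMI counts per gene and barcode with Cell Ranger against mm10 (version 6.0.1 per the labels, 4.0.0 per the file headers), and these deposited counts were used without change. Barcodes with 500 to 6000 genes and at most 10% mitochondrial UMIs were kept. The first 20 principal components of 2000 variable genes, without the members and the pathway list, were corrected per library with an implementation of Harmony and clustered by Louvain at resolution 0.4 (scanpy 1.11.5, python-igraph 0.11.9). A cluster was named for the marker list (13 lists, 86 genes) with the highest mean log2 fold over the other cells, given at least 3 markers 2-fold higher and a clear lead over the second list. No doublets were removed in the main analysis. UMI counts were summed per type and library. Intervals of 95% were exact (Poisson, conditional binomial for ratios, Clopper-Pearson for shares). A member was called past the fold at a centred log2 ratio of at least 1 in size and 100 UMIs in both libraries together, and a type order was read for members with at least 500 UMIs. The scripts were tested on simulated data. All 10 members, Yap1 and Wwtr1, the pathway genes past the fold and up to 3 of each role group by UMI count are named, with 3 genes of like profile per member. The members and lists were chosen with earlier results of these data known. Genome positions are from GENCODE M21. Alternatives were other cell filters, typing, doublet, scaling and minimum settings, and each library left out.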

Additional observations from a re-analysis of the deposited data

Results flagged for a closer look

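In YAPKO, Tead1 lay above the median gene in HCs (centred log2 ratio to WT 0.70, 0.37 to 1.03) and below it in HSCs (-0.29, -0.58 to -0.01), where the alleles were intact. It was singled out because the single YAPKO library moved in opposite directions in the 2 cell types with intervals that each leave out 0. The difference between the types was not tested, since there was 1 mouse per genotype. The HSC cluster held EC RNA, and in ECs the Tead1 ratio was -0.14 (-0.32 to 0.04). Within HC cluster 1 the YAPKO ratio was -0.29 (9 UMIs against 11), and among HSCs with few EC markers Tead1 was at 206 CPM in YAPKO (94.2 to 391; 3 cells) and 152 CPM in WT (87.2 to 248; 16 cells).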

How the results depend on the processing

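Over 12 alternatives the leading type stayed the same in all for Tead2, Tead4, Stk3, Stk4 and Sav1, in 11 for Vgll4, 10 for Tead1, 9 for Nf2 and Lats1 and 7 for Tead3. The number of members whose leading type stood apart was 1 of 8 in the main analysis (22.4% of all genes), 2 with a mitochondrial limit of 20% (24% of all genes), and 5 both with the limits of 500 and 6000 read as UMIs and with no batch correction, where HSCs were not among the types compared (31.4% and 30.1% of all genes), and it ranged from 1 to 3 when a library was left out (3 without TAZKO), with 26.2% to 32.2% of all genes. With the UMI limits, Tead2 made up 22.0% of TEAD UMIs in ECs and 16.0% in HSCs, and Stk4 made up 48.5% of MST UMIs in HSCs, 98.9% in T cells and 97.8% in B cells. With the mitochondrial limit of 20% the T cell share was 98.7%, and with the top 8% of Scrublet scores left out the shares were 96.7% in T cells and 96.7% in B cells. With cells typed one by one, Tead2 made up 12.2% of TEAD UMIs in HSCs, and Stk4 40.0% of MST UMIs in HSCs and 96.0% in T cells. Without batch correction Tead1 and Tead2 made up 80.8% and 9.04% in HSCs. Of the selections added after the data had been seen, HSCs with few EC markers gave 93.5% Tead1, 1.67% Tead2 and 63.3% Stk4 (3 libraries with any MST UMI), and leukocytes without EC-marker UMIs gave 97.9% Stk4 in T cells and 96.7% in B cells. Neutrophils of the latter selection gave 278 Stk4 and 2 Stk3 UMIs. In HCs, 1 member was past 2-fold in YAPKO (Tead1) when ratios were not centred, with cluster 2 only and without cluster 13. In TAZKO, 2 were past it without centring (Nf2 and Lats1) and 1 without cluster 13 (Lats1), and in DKO 1 with the limit of 20% and 1 with cells typed one by one (Tead1, lower) and 1 with cluster 1 only (Stk4). In ECs of TAZKO the count was 0 with a minimum of 300 UMIs, which left Tead4 untested. Thinned to 2000 UMIs, Tead1 was detected in 10.3% of ECs and Stk4 in 3.19% of ECs and 28.7% of T cells. Where not explained by fewer types, cells or genes, the cause was not tested. Among ratios in HCs that changed sign, that of Stk4 in DKO ran from -0.04 (cluster 2 only) to 1.16 (cluster 1 only) and that of Vgll4 in TAZKO from -0.83 to 0.07, the highest without centring, each over 12 settings. No paired analysis was possible because each genotype had 1 library, so the shared number 1 pairs nothing. Depth limits Tead3 and Tead4, the BECs and the 50 selected HSCs, whose values rest on few UMIs.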
